A study of Mus musculus with 9 samples.

Results

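Muscle fibres contract when an action potential releases calcium from an internal store, and 10 mouse genes that build this machinery are described here: Cacna1s, Stac3, Ryr1, Atp2a1, Atp2a2, Casq1, Casq2, Trdn, Jph1 and Jph2. They were picked by symbol, all 10 were present among the 24063 gene symbols of the deposited tables, and all 10 were among the 14006 genes tested. Where a symbol had several transcripts, the one with the highest mean count over the 9 libraries stands for the gene. The 9 RNA sequencing libraries came from C2C12, an established mouse myoblast line that fuses into multinucleated fibres in low serum. Cells labelled wild type were differentiated in DMEM with 2% fetal bovine serum and are labelled day 3. The 1C-MIM group (3 libraries) had a mix of 6 one-carbon metabolites added to its medium once differentiated, the scramble group (3 libraries) a mix of 6 unrelated metabolites, and the control group (3 libraries) was kept in normal medium. Neither the metabolites nor their doses are named in the labels. Nothing in them says that libraries of 1 group are separate cultures, and p-values here then cover the spread among libraries alone, which may be technical.

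In skeletal muscle the L-type calcium channel of the transverse tubule senses voltage and opens the ryanodine receptor of the facing sarcoplasmic reticulum by contact. Calcium then flows out of the reticulum, where calsequestrin holds it near the release channel. SERCA pumps return it, and junctophilins hold the tubule and reticulum membranes close together. Fast fibres typically use SERCA1 and calsequestrin 1, while SERCA2 and calsequestrin 2 are the forms known from slow fibres, heart and developing muscle.

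The 1C-MIM libraries had less Casq2 RNA and more Jph2 RNA than the libraries of either other medium. These were the members called in the fit of all 9 libraries with no term for the library number. In that fit 47.3% of all tested genes were called against control and 46% against scramble. Casq2 stood at 424 ± 27.8 CPM in 1C-MIM, 610 ± 52.0 CPM in scramble and 621 ± 167 CPM in control (SD, n = 3 each; CPM is the count scaled to a common library size). Jph2 stood at 318 ± 14.5 CPM in 1C-MIM, 198 ± 27.8 CPM in scramble and 200.5 ± 60.6 CPM in control. Atp2a1, the fast-fibre pump gene, had the highest fold change of the 10 and was not called in that fit. Its level differed with the library number in each group.

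The promoters of the called genes Casq2 and Jph2 and of Atp2a1 are printed because these genes carry the calls and the highest fold change. The sequences run from 250 bases before to 50 bases after the annotated start, 5′ to 3′ on the gene's strand, from RefSeq on build GRCm38.p6, and 6 of the 10 genes matched that table. Capitals mark every E-box (CANNTG, the core bound by myogenic factors) and every match to the MEF2 consensus, on either strand. Casq2 lies at chr3:102086165-102086464 on the plus strand, Jph2 at chr2:163397944-163398243 on the minus strand and Atp2a1 at chr7:126463024-126463323 on the minus strand.
Casq2: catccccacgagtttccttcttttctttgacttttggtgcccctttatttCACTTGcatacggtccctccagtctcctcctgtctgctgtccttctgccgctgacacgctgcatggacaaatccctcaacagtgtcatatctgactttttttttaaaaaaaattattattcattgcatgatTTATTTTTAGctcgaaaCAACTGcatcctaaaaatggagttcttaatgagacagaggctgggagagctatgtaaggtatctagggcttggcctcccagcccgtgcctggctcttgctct
Jph2: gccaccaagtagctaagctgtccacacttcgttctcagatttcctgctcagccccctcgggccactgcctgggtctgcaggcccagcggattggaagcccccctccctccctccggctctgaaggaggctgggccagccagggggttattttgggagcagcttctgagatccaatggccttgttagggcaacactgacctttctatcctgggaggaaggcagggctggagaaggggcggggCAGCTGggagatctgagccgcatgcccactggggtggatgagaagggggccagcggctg
Atp2a1: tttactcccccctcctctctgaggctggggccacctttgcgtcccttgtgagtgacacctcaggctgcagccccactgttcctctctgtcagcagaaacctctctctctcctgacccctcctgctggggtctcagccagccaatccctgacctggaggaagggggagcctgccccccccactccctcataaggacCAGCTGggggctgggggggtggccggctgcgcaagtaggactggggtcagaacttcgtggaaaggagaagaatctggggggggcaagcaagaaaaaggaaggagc

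The Jph2 and Atp2a1 windows each hold 1 E-box, and in both it reads CAGCTG, which begins 9 bases before the Jph2 start (29 bases before a second annotated start) and 55 bases before the Atp2a1 start. The Casq2 window holds 2 E-boxes, neither of them CAGCTG, and 1 MEF2 match that begins 69 bases before the start. The windows of Cacna1s and Casq1 also hold CAGCTG, so 4 of the 6 matched genes do, and Ryr1 holds no E-box. CAGCTG, which is one form of CANNTG, occurs in 16.3% of 32851 promoter windows of this length, CANNTG in 72.3% and the MEF2 consensus in 3.19%. A match is a string of letters and shows no binding.

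Libraries numbered 1 stood apart in these genes. In 1C-MIM, 9 of the 10 genes were highest in library 1, with a median log2 difference of 0.21 from the mean of libraries 2 and 3. In scramble, 9 of 10 were highest in library 1 (median 0.54), and Trdn was the exception in both groups. In control, all 10 were highest in library 1 (median 1.10), with a range of 0.34 (Trdn) to 1.70 (Cacna1s). Over all tested genes the same medians were 0.01 in 1C-MIM, 0.00 in scramble and 0.00 in control. Scaling sets the typical gene of each library near 0, so these medians do not show that other genes were alike in library 1. Across the transcriptome, control library 1 differed from libraries 2 and 3 by a chi-square per degree of freedom of 43.1 and 47.9. Between control libraries 2 and 3 this value was 7.67. Libraries 2 and 3 differed by a median of 0.08 in 1C-MIM, 0.04 in scramble and 0.07 in control on the log2 scale over the 10 genes. The labels give the numbers no meaning such as a day or batch. The fold changes of the 10 genes are therefore also given without the 3 libraries numbered 1, a fit that leaves 2 libraries per group. That exclusion was chosen after the values of these same genes were seen, and it takes out much of their spread. Its SE, p-values and calls describe the remaining libraries and are not an independent test.

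**Figure D1:**
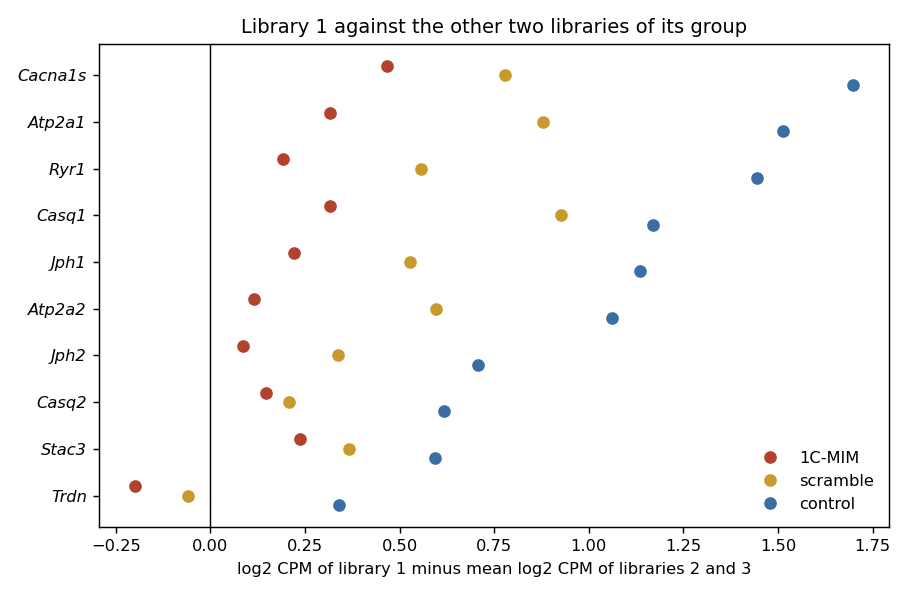
Difference on the log2 CPM scale (x axis) between library 1 and the mean of libraries 2 and 3 for each of the 10 genes (y axis), with 1 point per group. The 1C-MIM points lie from -0.20 to 0.47, scramble points from -0.06 to 0.93 and control points from 0.34 to 1.70.

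Fibre markers, taken as a sum, moved with the library number too. The summed level of 17 muscle fibre markers, among them Myh3, Acta1, Actn2, Ckm and Myog, was 12109.6, 10402 and 9740.4 CPM in 1C-MIM libraries 1 to 3, 12909.9, 8319 and 8441 CPM in scramble and 15186, 8135 and 7026 CPM in control. None of the 17 was at 0 in all libraries. In the fit of all 9 libraries, 2 were called higher in 1C-MIM than in control (Ckm and Myog) and 1 lower (Mb), beside 22.9% and 24.3% of all tested genes. Without the libraries numbered 1, 9 were higher and 3 lower (Myh4, Myh7 and Mb), beside 28% and 28.5%. Mb did not follow the library number, at 743, 787 and 688 CPM in control libraries 1 to 3. The summed level of 20 mitosis genes was 1383, 1268 and 1136 CPM in 1C-MIM, 2427, 2901 and 2923 CPM in scramble and 2241, 2941 and 2922 CPM in control. Markers of myoblasts and reserve cells (16 genes) summed to between 2245 and 2374 CPM in 1C-MIM. In scramble they summed to 1748 to 1762 CPM and in control to 1628 to 1742 CPM, and none was at 0 in all libraries. Of these 16, 8 were called higher in 1C-MIM than in control and 4 lower (Cd34, Id1, Id2 and Id3), beside 22.9% and 24.3% of all tested genes. The part of all these markers in the values of the 10 genes was not tested. In these bulk samples, fewer fibres and less RNA of a gene per fibre cannot be told apart.

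Depth was 28950809 to 33164223 counts per library with 1 transcript per gene. The lowest count of any of the 10 genes in any library was 664, for Stac3, so low counts did not limit the values.

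Of the 10 genes, 1 was called higher and 1 lower in 1C-MIM against control, at an adjusted p below 0.05 (edgeR quasi-likelihood test, Benjamini-Hochberg over all 14006 tested genes). Over all tested genes 47.3% were called in that comparison, 22.9% higher and 24.3% lower. In 1C-MIM against scramble the counts were again 1 higher and 1 lower, beside 46% of tested genes in all (22.9% higher, 23.2% lower). These comparisons share the 1C-MIM libraries. The median log2 fold change of the 10 genes was 0.12 against control and 0.11 against scramble, beside -0.01 and 0.00 over all tested genes.

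Leaving out the 3 libraries numbered 1, a choice made after these values were seen, changed these counts. Against control 8 of 10 were then higher and 1 lower, where 56.5% of tested genes were called, 28% higher and 28.5% lower. Against scramble 5 were then higher and 1 lower, where 55.2% were called, 27.4% higher and 27.8% lower. The median log2 fold change of the 10 genes was 0.45 against control and 0.19 against scramble in that fit, beside 0.00 over all tested genes in both. Leaving out control library 1 alone gave 5 higher and 1 lower against control, where 50.9% were called, 25.1% higher and 25.9% lower. Against scramble that fit gave 3 higher and 1 lower, where 52.9% were called, 26% higher and 26.9% lower.

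**Figure D2:**
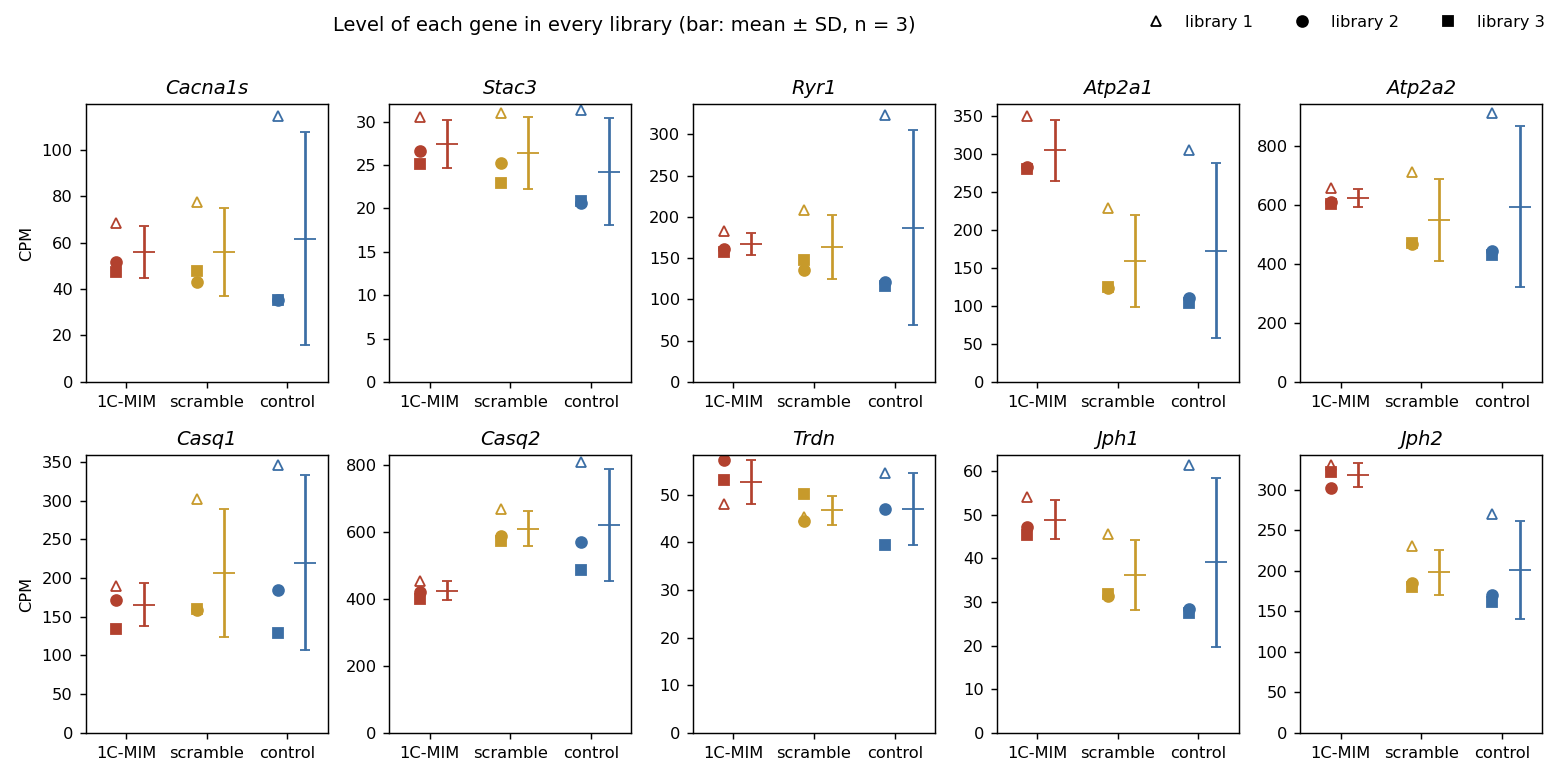
Level in CPM (y axis, from 0) of each of the 10 genes in every library of the 1C-MIM, scramble and control groups; symbols give the library number, bars the mean ± SD of 3 libraries. Open triangles, library 1, are the highest point of each group except for Trdn in 1C-MIM and scramble, and Jph2 and Casq2 show the 1C-MIM points above and below all others.

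The voltage sensor and its adaptor did not differ between groups beyond the spread of the libraries. Cacna1s encodes the pore-forming subunit of the L-type channel. Its level was 68.5, 51.7 and 47.4 CPM in 1C-MIM libraries 1 to 3, 77.6, 42.8 and 47.7 CPM in scramble and 115, 35.3 and 35.3 CPM in control. The 3 groups overlapped, with control holding both the highest and the lowest library. Its log2 fold change in 1C-MIM was -0.14 ± 0.51 against control (SE; edgeR adjusted p = 0.841; 95% interval -1.34 to 1.06) and -0.01 ± 0.51 against scramble (edgeR adjusted p = 0.994). After leaving out the libraries numbered 1, it was called higher in 1C-MIM than in control (0.49 ± 0.06, edgeR adjusted p = 1.2e-06) and not against scramble (0.13 ± 0.06, edgeR adjusted p = 0.0748).

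Stac3 encodes the adaptor that is needed to bring the channel to the triad and couple it to release. It had 30.5, 26.5 and 25.1 CPM in 1C-MIM, 31.0, 25.2 and 22.9 CPM in scramble and 31.3, 20.6 and 20.9 CPM in control. The groups overlapped, and its library 1 values were nearly equal in all 3 media. The log2 fold change was 0.18 ± 0.17 in 1C-MIM against control (edgeR adjusted p = 0.438; 95% interval -0.22 to 0.57) and 0.05 ± 0.17 against scramble (edgeR adjusted p = 0.828). Against control it became a call without the libraries numbered 1 (0.32 ± 0.07, edgeR adjusted p = 0.00089), and against scramble it did not (0.10, edgeR adjusted p = 0.238).

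Ryr1, the release channel itself and the longest transcript of the set at 15362 bases, had 182, 161 and 158 CPM in 1C-MIM, 208, 135 and 148 CPM in scramble and 323, 121 and 117 CPM in control. Its 1C-MIM libraries lay within the range of control and within that of scramble. The log2 fold change was -0.16 ± 0.41 against control (edgeR adjusted p = 0.773; 95% interval -1.13 to 0.81) and 0.03 ± 0.41 against scramble (edgeR adjusted p = 0.960). In the fit of libraries 2 and 3, it was higher in 1C-MIM by 0.42 ± 0.04 against control (edgeR adjusted p = 1.1e-07) and by 0.17 ± 0.04 against scramble (edgeR adjusted p = 0.0029), so its direction against control turned once the libraries numbered 1 were out.

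The pumps gave the most uneven picture. Atp2a1, which encodes SERCA1, had 350, 282 and 280 CPM in 1C-MIM, 229, 124 and 125 CPM in scramble and 305, 110 and 103 CPM in control. Every 1C-MIM library lay above every scramble library, while control library 1 lay inside the 1C-MIM range. The log2 fold change in 1C-MIM was 0.82 ± 0.47 against control (edgeR adjusted p = 0.194; 95% interval -0.29 to 1.92) and 0.93 ± 0.47 against scramble (edgeR adjusted p = 0.146). With the libraries numbered 1 left out, the rise was called, at 1.40 ± 0.04 against control (edgeR adjusted p = 1.5e-15) and 1.18 ± 0.04 against scramble (edgeR adjusted p = 1.5e-14), the largest changes of the 10 in that fit. It was also called without control library 1 alone (1.51 against control, edgeR adjusted p = 0.0121, and 0.93 against scramble, edgeR adjusted p = 0.0363). Exons of Atp2a1 overlap those of Rabep2 on the opposite strand, and the sources used here do not say if strand was used in counting. Rabep2 itself stood between 23.1 and 27.5 CPM in all 9 libraries.

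Atp2a2, which encodes SERCA2, had 659, 612 and 604 CPM in 1C-MIM, 712, 470 and 472 CPM in scramble and 913, 445 and 430 CPM in control. The groups overlapped, and libraries 2 and 3 of scramble and control lay below all 1C-MIM libraries. The log2 fold change was 0.07 ± 0.31 against control (edgeR adjusted p = 0.874; 95% interval -0.67 to 0.81) and 0.18 ± 0.31 against scramble (edgeR adjusted p = 0.670). After leaving out the libraries numbered 1, it was higher by 0.47 ± 0.03 against control (edgeR adjusted p = 5.6e-10) and 0.37 ± 0.03 against scramble (edgeR adjusted p = 2.7e-08). The transcript that represents Atp2a2 is a non-coding RefSeq record, NR_027838. In 1C-MIM it had 163, 150.0 and 148 TPM, the coding NM_001110140 had 188, 174 and 172 TPM and the coding NM_009722 had 195, 178 and 175 TPM.

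**Figure D3:**
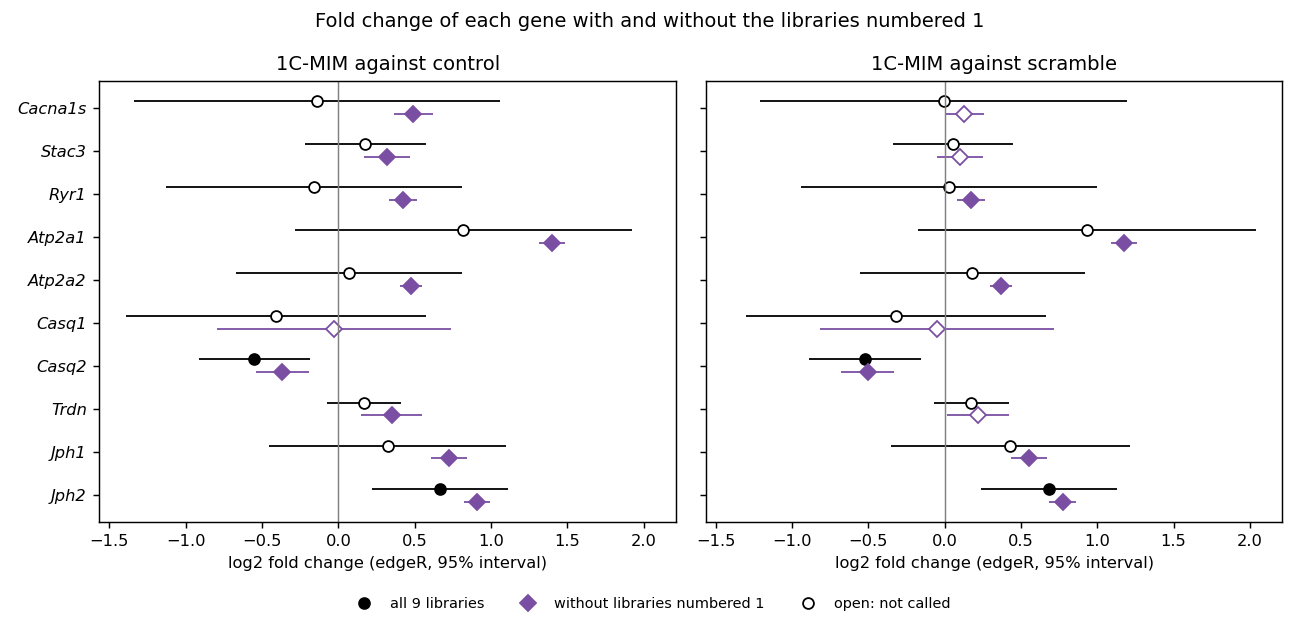
Log2 fold change (x axis) of each gene in 1C-MIM against control (left) and against scramble (right), with 95% intervals from edgeR; black circles use all 9 libraries, purple diamonds leave out the 3 libraries numbered 1, and filled symbols were called at an adjusted p below 0.05. Casq2 lies left of 0 and Jph2 right of 0 in both fits, and Atp2a1 against control lies at 0.82 with all libraries and at 1.40 without those numbered 1.

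Of the luminal proteins, the calsequestrins bind calcium inside the store and triadin anchors them to the release channel. Casq1, the skeletal form, had 190, 172 and 135 CPM in 1C-MIM, 302, 158 and 159 CPM in scramble and 346, 185 and 129 CPM in control. The groups overlapped widely. Its log2 fold change was -0.41 ± 0.42 against control (edgeR adjusted p = 0.457; 95% interval -1.39 to 0.58) and -0.32 ± 0.42 against scramble (edgeR adjusted p = 0.568). Of the 10 genes, Casq1 was the one not called against control without the libraries numbered 1 (-0.03 ± 0.25, edgeR adjusted p = 0.934; 95% interval -0.79 to 0.74), and it was not called against scramble there (-0.05, edgeR adjusted p = 0.889).

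Casq2, the form named for heart muscle, had 454, 421 and 398 CPM in 1C-MIM, 669, 587 and 573 CPM in scramble and 807, 570 and 486 CPM in control. All 3 1C-MIM libraries lay below all 6 others. It fell by 0.55 ± 0.16 on the log2 scale in 1C-MIM against control (edgeR adjusted p = 0.0204; lower in 3 of 3 libraries) and by 0.52 ± 0.16 against scramble (edgeR adjusted p = 0.0261). In the fit of libraries 2 and 3, the values were -0.37 ± 0.07 against control (edgeR adjusted p = 0.0044) and -0.50 ± 0.07 against scramble (edgeR adjusted p = 0.00098). The call against control was lost without 1C-MIM library 2 (edgeR adjusted p = 0.0569) or library 3 (0.0685), at log2 fold changes of -0.54 and -0.51. Against scramble it was lost without either of these (0.0688 and 0.0829), without scramble library 1 (0.0837) or library 2 (0.0509), and when no filter on low counts was used (0.0523), at values between -0.57 and -0.45 over all fits that leave out 1 library.

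Trdn had the smallest difference between library 1 and the others in control. It had 48.01, 57.2 and 53.0 CPM in 1C-MIM, 45.4, 44.5 and 50.3 CPM in scramble and 54.6, 47.1 and 39.4 CPM in control. The groups overlapped, and library 1 was the lowest of the 1C-MIM group. The log2 fold change was 0.17 ± 0.11 against control (edgeR adjusted p = 0.238; 95% interval -0.08 to 0.41) and 0.18 ± 0.11 against scramble (edgeR adjusted p = 0.215). With the libraries numbered 1 left out, it was called against control (0.35 ± 0.09, edgeR adjusted p = 0.0084) and not against scramble (0.22 ± 0.09, edgeR adjusted p = 0.0659).

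Of the junctophilins, Jph1 is the form best known from skeletal muscle and Jph2 is shared with heart. Jph1 had 54.0, 47.3 and 45.4 CPM in 1C-MIM, 45.5, 31.3 and 31.7 CPM in scramble and 61.5, 28.4 and 27.5 CPM in control. Its lowest 1C-MIM library lay just below scramble library 1, and control library 1 was the highest of all. The log2 fold change was 0.32 ± 0.33 against control (edgeR adjusted p = 0.459; 95% interval -0.46 to 1.10) and 0.43 ± 0.33 against scramble (edgeR adjusted p = 0.327). After leaving out the libraries numbered 1, it was higher by 0.73 ± 0.06 against control (edgeR adjusted p = 1.5e-09) and 0.55 ± 0.06 against scramble (edgeR adjusted p = 8.8e-08).

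Jph2 had 331, 302 and 321 CPM in 1C-MIM, 230.1, 185 and 179.7 CPM in scramble and 270.2, 170.4 and 161 CPM in control. All 3 1C-MIM libraries lay above all 6 others. It rose by 0.67 ± 0.19 on the log2 scale in 1C-MIM against control (edgeR adjusted p = 0.0222; 95% interval 0.22 to 1.11) and by 0.68 ± 0.19 against scramble (edgeR adjusted p = 0.0208). In the fit of libraries 2 and 3, the rise was 0.91 ± 0.04 against control (edgeR adjusted p = 5.2e-13) and 0.77 ± 0.04 against scramble (edgeR adjusted p = 7.3e-12). The call against control was lost without 1C-MIM library 1 (edgeR adjusted p = 0.0630), 1C-MIM library 3 (0.0577), control library 2 (0.0770) or control library 3 (0.0563). Against scramble it was lost without 1C-MIM library 1 (0.0592) or 3 (0.0546) or scramble library 2 (0.0656) or 3 (0.0657). The value stayed between 0.53 and 0.94 against control and between 0.62 and 0.80 against scramble in the 9 fits that each leave out 1 library.

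Casq2 and Jph2 were the members whose 1C-MIM and control libraries did not overlap, 1 higher and 1 lower of 10, where 55.5% of all tested genes did not overlap, 27.3% higher and 28.2% lower. Atp2a1 joined them against scramble, giving 2 higher and 1 lower of 10, where 59.5% of all tested genes did not overlap, 29.7% higher and 29.9% lower. In scramble against control, 0 of 10 genes were called by edgeR, with or without a block for the library number. In the fit without the block, 0 had an unadjusted p below 0.05. For each of the 10 genes the scramble and control libraries overlapped, where 9.09% of all tested genes did not, 4.83% higher and 4.26% lower. Over all tested genes edgeR called 0% there, with 482 genes at an unadjusted p below 0.05, DESeq2 called 4 and limma-voom 0. The log2 fold changes of the 10 genes in scramble against control ran from -0.19 ± 0.41 (Ryr1) to 0.12 ± 0.17 (Stac3). With the libraries numbered 1 left out, Cacna1s (0.36 ± 0.06, edgeR adjusted p = 0.0086), Ryr1 (0.25 ± 0.04, edgeR adjusted p = 0.0105) and Atp2a1 (0.22 ± 0.04, edgeR adjusted p = 0.0133) were higher in scramble than in control, beside 0.685% of tested genes in all (0.578% higher, 0.107% lower).

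Levels between genes are compared in TPM, which accounts for transcript length. Casq2 ranked first in all 3 groups, at 237 ± 17 TPM in 1C-MIM, 336 ± 34 TPM in scramble and 345 ± 104 TPM in control. Casq1, Atp2a2, Atp2a1 and Jph2 filled ranks 2 to 5 in each group, and Stac3 stood at rank 6. The remaining genes, Ryr1, Trdn, Cacna1s and Jph1, lay between 10.5 and 17.1 TPM on average, and neighbours among them overlapped in every group. In 1C-MIM the order at the top was Casq2, Atp2a2, Atp2a1, Casq1 and Jph2, where Atp2a1 and Casq1 overlapped, as did Casq1 and Jph2. In scramble it was Casq2, Casq1, Atp2a2, Jph2 and Atp2a1, where Casq1 overlapped with Atp2a2 and Jph2 with Atp2a1. In control the order was Casq2, Casq1, Atp2a2, Atp2a1 and Jph2, each overlapping with the next. The order of Casq1 and Atp2a2 depended on the Atp2a2 transcript: the coding NM_001110140 and NM_009722 averaged 156 and 159 TPM in scramble, above the 153 TPM of Casq1, and 169 and 176 TPM in control, above the 165 TPM of Casq1. A break between the 5 high genes and Stac3 was present in all 3 groups: in 1C-MIM the lowest of the 5 was 100.1 TPM and the highest Stac3 value 24.1 TPM.

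Shares within paralogue pairs are set by levels within each library and do not depend on its scaling. They do depend on the transcript kept for each gene. For Atp2a2 this was NR_027838, which had the lowest TPM of its transcripts in every library, so a coding transcript would give lower Atp2a1 shares. Atp2a1 made up 46.9%, 43.4% and 43.6% of summed Atp2a1 and Atp2a2 TPM in 1C-MIM libraries 1 to 3, 34.8%, 30.5% and 30.6% in scramble and 35.7%, 29.2% and 28.6% in control. Every 1C-MIM library was above every other library, control library 1 included. The mean was 13.5 percentage points higher in 1C-MIM than in control and 12.7 points higher than in scramble. With 3 libraries against 3, the exact two-sided permutation test gave p = 0.1 for each, the smallest it can give (0.225 adjusted over the 9 tests of the 3 pairs).

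Jph1 made up 11.9% ± 0.77 of junctophilin TPM in 1C-MIM, 13.8% ± 0.95 in scramble and 14.2% ± 2.2 in control (SD, n = 3 each). Its share was lower in all 3 1C-MIM libraries than in any other library, with an exact permutation p = 0.1 against each group (0.225 adjusted). The Casq1 share overlapped between groups, at 34.2% ± 2.6 in 1C-MIM, 30.5% ± 6.3 in scramble and 31.0% ± 5.2 in control (exact permutation p = 0.5 against control and 0.4 against scramble). Reads that could map to both genes of a pair were few by sequence: runs of 25 bases present in both numbered 22 for Atp2a1 and Atp2a2, 11 for Jph1 and Jph2 and 1 for Casq1 and Casq2, in GENCODE transcripts.

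The ratio of Jph2 to Casq2 within a library, picked after the values were seen and so given with no test, did not overlap between 1C-MIM and the other groups. That was fixed by the single genes, as every 1C-MIM library was above all others in Jph2 TPM and below all others in Casq2 TPM. It was 0.432, 0.426 and 0.478 in 1C-MIM, 0.204, 0.187 and 0.186 in scramble and 0.199, 0.178 and 0.196 in control, on the TPM scale. The libraries numbered 1 lay close to the others in this ratio. The ratio of Atp2a1 to Casq2 was also picked after the values were seen and is given with no test. It was 0.564, 0.490 and 0.514 in 1C-MIM, 0.250, 0.154 and 0.159 in scramble and 0.276, 0.141 and 0.155 in control, with library 1 above the rest in each group. Against scramble its lack of overlap was again fixed by the single genes. Every 1C-MIM library was above all scramble libraries in Atp2a1 TPM and below them in Casq2 TPM.

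**Figure D4:**
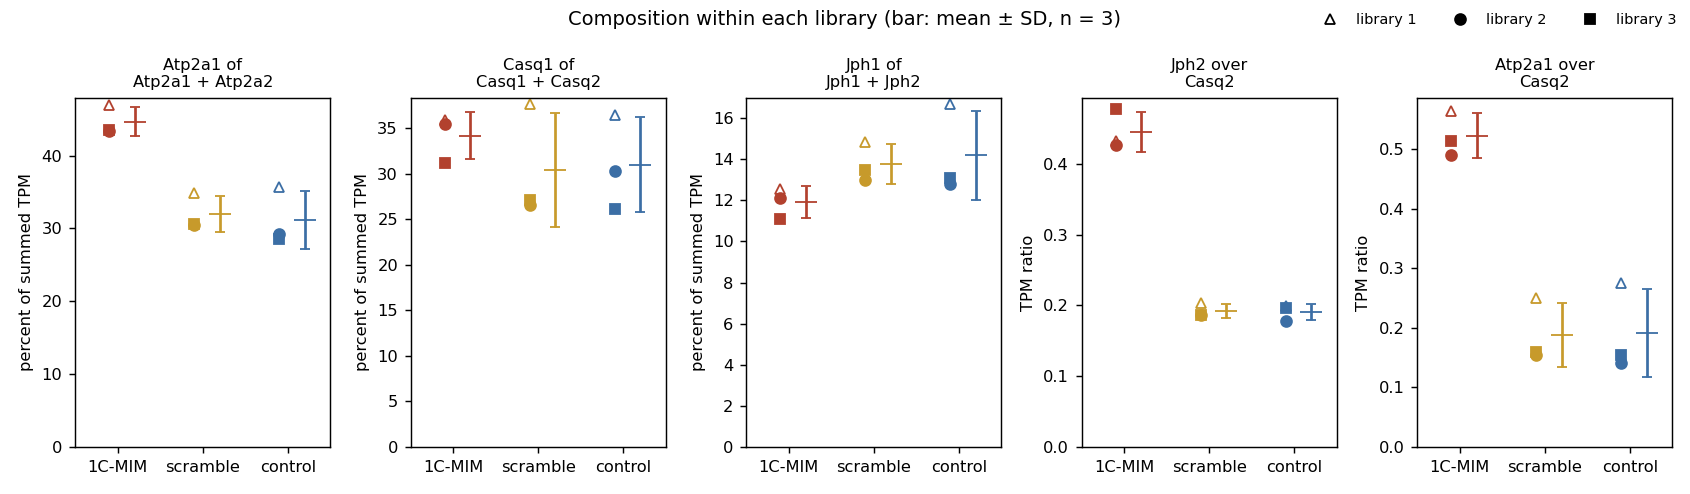
Share of the first gene in the summed TPM of 3 paralogue pairs (y axis, percent) and 2 ratios of TPM (y axis) in every library, with mean ± SD of 3 libraries as bars. The Atp2a1 share and both ratios are higher, and the Jph1 share lower, in all 3 1C-MIM libraries than in any scramble or control library. For Jph2 over Casq2, and for Atp2a1 over Casq2 against scramble, this restates the levels of the single genes. Both ratios were picked after the values were seen.

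The genes nearest in pattern were sought among all other tested genes, by the root mean square difference of log2 CPM after centring on the mean over the 9 libraries. Adck3 was closest to the mean of the 10 genes (0.06), followed by Pde4dip (0.07), Cap2 (0.07), Cacnb1 (0.08) and Tbx15 (0.08). This distance takes in differences among libraries of the same group as well as differences between groups. Adck3, for one, had 75.8, 39.6 and 35.9 CPM in control libraries 1 to 3. Cacnb1 encodes the beta subunit of the skeletal L-type channel, and it was also the gene nearest to Ryr1 (0.09). The gene nearest to Stac3 was Bin1, a membrane-bending protein of the transverse tubule (0.08), to Atp2a2 Chrnd, a muscle acetylcholine receptor subunit (0.05), to Trdn the titin cap gene Tcap (0.06) and to Jph2 Tmem38b, a cation channel of the reticulum (0.06). Casq2 was nearest to Suox, sulfite oxidase (0.04), Atp2a1 to Hhatl (0.08), Casq1 to Hspb7 (0.11), Jph1 to Rbm38 (0.07) and Cacna1s to Adamtsl2 (0.12). Among the 10 themselves, Jph1 and Atp2a2 (0.13), Cacna1s and Ryr1 (0.13) and Ryr1 and Atp2a2 (0.13) were most alike, and Atp2a1 and Casq2 least (0.78).

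The wider calcium machinery was followed in 10 lists of 94 genes, of which 81 were tested. In 1C-MIM against control 17 of the 81 were higher and 21 lower, or 46.9%, next to the 47.3% of all tested genes. Among other L-type channel subunits 0 of 11 rose and 4 fell (median log2 fold change -0.18). Stac2, a relative of Stac3, stood at 88.7 ± 2.6 CPM in 1C-MIM and 120 ± 4.5 CPM in control (-0.44 ± 0.05, edgeR adjusted p = 3.3e-05). Stac, Cacna1d and Cacnb4 also fell, all at less than 1 CPM in every group on average, and Cacna1d lost its call without the libraries numbered 1 (edgeR adjusted p = 0.136). After leaving out the libraries numbered 1, 3 of the 11 rose and 3 fell, beside 28% and 28.5% of all tested genes.

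Of 7 other store release channel genes 1 rose and 5 fell (median -0.31). Ryr3, a ryanodine receptor of developing muscle, had 37.1, 30.2 and 30.5 CPM in 1C-MIM, 15.4, 9.15 and 9.84 CPM in scramble and 20.4, 11.1 and 8.69 CPM in control. It rose by 1.28 ± 0.32 against control (edgeR adjusted p = 0.013) and 1.501 against scramble (edgeR adjusted p = 0.0073), with no overlap between 1C-MIM and the others. Itpr3, an inositol trisphosphate receptor, fell to 84.5 ± 5.6 CPM in 1C-MIM, against 142 ± 4.2 CPM in control (-0.75 ± 0.05, edgeR adjusted p = 2.3e-06), and Itpr2 (-0.31) and Fkbp1b (-0.58) fell with it. The cardiac channel gene Ryr2 had at most 5 counts in any library. Exons of Ryr3 overlap Aven, and those of Cacna1d overlap Chdh, on the opposite strand.

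Both tested genes of the pump list rose. Atp2a3, which encodes SERCA3, stood at 6.13 ± 0.82 CPM in 1C-MIM and 1.35 ± 0.50 CPM in control (2.19 ± 0.21, edgeR adjusted p = 1.8e-05). Mrln, listed as 2310015B20Rik, encodes myoregulin, a small inhibitor of SERCA, and stood at 4.97 ± 0.69 CPM in 1C-MIM and 2.89 ± 0.30 CPM in control (0.78 ± 0.14, edgeR adjusted p = 0.00093). Sln, the SERCA inhibitor sarcolipin, had 0 counts in all 9 libraries, which allows up to 0.104 CPM per library (3 counts, counting error only), and Pln had at most 3 counts.

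Of 10 other lumen and junction genes 4 rose and 2 fell (median 0.05). Calr, the calcium buffer calreticulin, stood at 1657 ± 56.7 CPM in 1C-MIM and 1026 ± 59.7 CPM in control (0.69 ± 0.06, edgeR adjusted p = 9.0e-06). Tmem38b rose by 0.73 ± 0.15, Tmem109 by 0.60 ± 0.09 and Jsrp1, a junctional protein that binds the channel, by 0.52 ± 0.13. Of 10 tubule and triad genes 0 rose and 2 fell (median 0.04), Cav3, the muscle caveolin, by 1.01 ± 0.15 and Dnm2 by 0.22 ± 0.05. In the fit of libraries 2 and 3, 6 of these 10 rose and 2 fell, and of the 10 lumen and junction genes 5 rose and 3 fell (median 0.48).

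Of 7 store-operated entry genes 1 rose and 1 fell: the channel genes Orai1 rose by 0.62 ± 0.11 (edgeR adjusted p = 0.00087) and Orai3 fell by 0.31 ± 0.07 (edgeR adjusted p = 0.0034). Of 4 calcium extrusion genes 2 rose and 0 fell, with the exchanger gene Slc8a1 at 55.1 ± 2.4 CPM in 1C-MIM and 31.9 ± 3.3 CPM in control (0.79 ± 0.07, edgeR adjusted p = 1.4e-05) and the pump gene Atp2b4 higher by 0.35 ± 0.07. Of 10 action potential genes 2 rose and 1 fell, and the potassium channel gene Kcnj2 rose by 0.77 ± 0.21 (edgeR adjusted p = 0.018). Of 13 cytosolic calcium binding genes 3 rose and 4 fell. Pvalb, the parvalbumin of fast fibres, had 20.9, 16.4 and 11.8 CPM in 1C-MIM, 3.10, 3.07 and 4.24 CPM in scramble and 4.97, 3.47 and 3.36 CPM in control (2.05 ± 0.23, edgeR adjusted p = 7.6e-05). Of 7 mitochondrial uptake genes 2 rose and 2 fell, by at most 0.34 in size. In the fit of libraries 2 and 3, 3 store-operated entry genes rose and 1 fell, and 5 action potential genes rose and 0 fell (median 0.51). There 4 cytosolic genes rose and 5 fell, and 4 mitochondrial genes rose and 2 fell. Beside these counts, 28% of all tested genes rose and 28.5% fell in that fit. The counts of the release channel, pump and extrusion lists were the same in both fits. Exons of Slc8a1 overlap Gm11096 and those of Dnm2 overlap Tmed1 on the opposite strand.

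**Figure D5:**
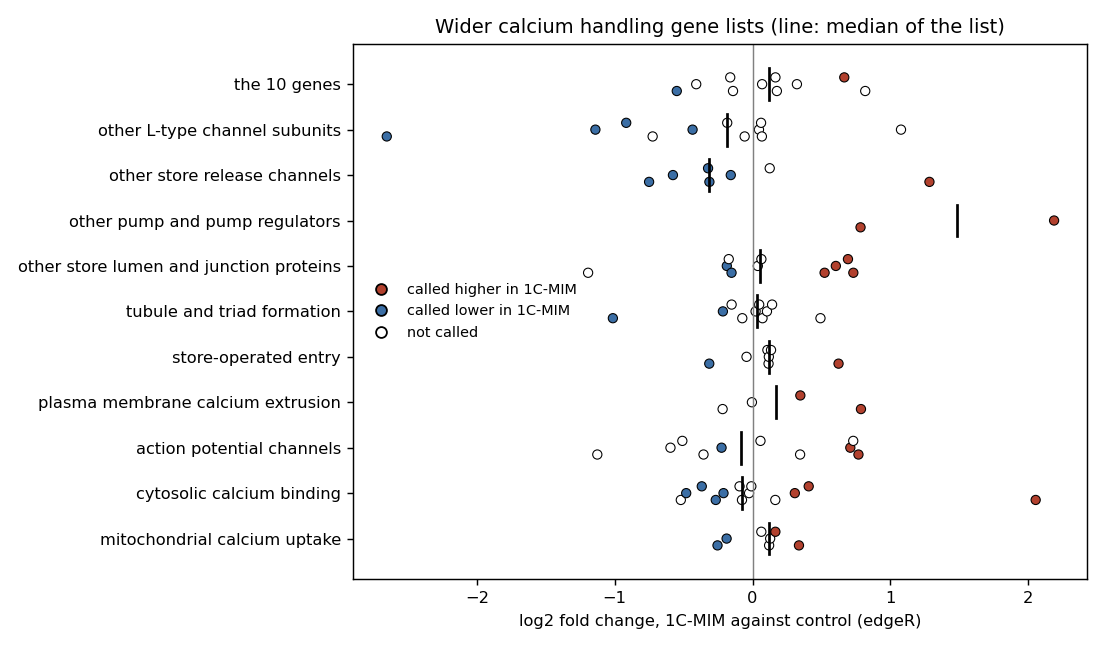
Log2 fold change in 1C-MIM against control (x axis) of each tested gene in the 10 wider lists and of the 10 genes themselves (rows), with the list median as a line; red points were called higher in 1C-MIM, blue points lower and open points not called. Calls of both directions occur in 6 of the 10 wider lists, and Atp2a3, Pvalb and Ryr3 are the points farthest to the right.

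Against scramble 17 of the 81 genes were higher and 18 lower in 1C-MIM, or 43.2%, where 46% of all tested genes were called. In scramble against control 0 of the 81 were called. With the libraries numbered 1 left out, 35 of the 81 rose and 21 fell in 1C-MIM against control, or 69.1% beside 56.5% of all tested genes. Against scramble 28 rose and 22 fell in that fit, or 61.7% beside 55.2%. In scramble against control 2 of the 81 then rose, Atp2b4 and Scn4a, or 2.47% beside 0.685%; Scn4a, a sodium channel gene, is named for this count after its values were seen. Among markers of other cells, the 8 cardiac genes summed to 17.9 to 20.6 CPM in 1C-MIM, 24.2 to 35.01 CPM in scramble and 21.8 to 36.8 CPM in control. Of the 4 tested, Myh6 fell and Tnni3 rose against control, and Gata4 and Nppb were not called. Myh6 had 6.55, 5.45 and 5.05 CPM in 1C-MIM, 21.4, 11.6 and 11.8 CPM in scramble and 23.9, 9.57 and 8.89 CPM in control, so the lower cardiac sum lay mostly in that gene. Smooth muscle and fibroblast markers (9 genes) summed to 3746 to 4433 CPM in 1C-MIM, 2999 to 3014 CPM in scramble and 2733 to 3002 CPM in control. Of the 7 tested, 4 rose, Dcn, Pdgfra and Acta2 among them, and Tagln fell. The part of these markers in the Casq2 and Jph2 results was not tested.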

How the data were processed

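Total RNA from C2C12 fibres was sequenced in 9 libraries, each from 1.3 µg of RNA (RNeasy isolation, SMARTer library kit, per the labels' protocols). Tools named without roles in the submitters' processing notes are STAR and featureCounts (Subread 2.0.1), Salmon 1.5.2 and StringTie 2.2.1, Picard 2.27.4 and SAMtools 1.15.1, with Trim Galore 0.6.7, DESeq2 1.28.0 and bedtools 2.30.0. The build named there is GRCm39, and how strand was handled is not stated. Each deposited table holds, per the file headers, the count, TPM and FPKM of 33984 RefSeq transcripts. The deposited counts are whole and not normalized. Deposited TPM and FPKM divide by length, and TPM served here for levels between genes and for shares. Since 21.9% of symbols had more than 1 transcript, 1 was kept for each, that of highest mean count.

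Genes that passed edgeR's filterByExpr were tested in 1 fit over all 9 libraries (edgeR 4.0.16 quasi-likelihood test, robust, TMM, Benjamini-Hochberg over all tested genes, called below 0.05; limma 3.58.1, DESeq2 1.42.0, R 4.3.3). CPM use the TMM-normalized library size, log2 CPM a prior count of 2, and 95% intervals the SE and the fit's degrees of freedom. Shares were compared by exact two-sided permutation (scipy 1.17.1). The common biological coefficient of variation was 0.084. Totals were 28950809 to 33164223 counts per library with 1 transcript per gene. The edgeR step was tested on simulated counts. These had the same spread for every gene and no effect of the library number, so that test does not cover such an effect. All 9 pairs of libraries within a group differed beyond counting noise (chi-square per degree of freedom 3.30 to 47.9), so none was counted as a repeat. Deviations from the group mean of same-numbered libraries correlated at 0.17 to 0.48 in scramble and control. This was above the limit of 0.1 for each of 3 pairs, so the numbers may pair these 2 groups. Of their 6 libraries, 4 correlated best with their own number. The main fit held no term for the number. With the replicate number as a block, 0 of all tested genes were called in scramble against control.

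Named genes were all 10 members and, per wider list, up to 4 with the smallest p in 1C-MIM against control; genes nearest in pattern were those at the smallest distance. The members and lists were chosen with earlier results of these data known. Alternatives covered the tool (DESeq2, limma-voom), the scaling (upper quartile, RLE, library size), the filter, a block for the replicate number, a fit of 2 groups only, the mean over transcripts, an adjusted p below 0.01, each library left out and the libraries numbered 1 left out. Overlaps of exons came from GENCODE M21 (67 of 68 named genes matched), and no coordinates were converted between builds. Mrln and Stimate were found under older symbols. Strit1, Arln, Erln and Mcub were not analysed here. Not every gene named by the rule is reported here.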

Additional observations from a re-analysis of the deposited data

How the results depend on the processing

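With the replicate number as a block, Atp2a1 was also called higher (0.99 ± 0.27 against control, edgeR adjusted p = 0.0305, and 1.01 ± 0.26 against scramble, edgeR adjusted p = 0.0283). This gave 2 of 10 genes higher in each 1C-MIM comparison, where 25.8% and 26% of tested genes were higher and 52.8% and 52.2% were called in all. The block changed no other call of the 10. Same-numbered libraries correlated at 0.08 to 0.19 in 1C-MIM and control and 0.03 to 0.15 in 1C-MIM and scramble, so the numbers were not taken to pair them, and 4 of 6 and 3 of 6 libraries correlated best with their own number. Without the libraries numbered 1, 8 genes were higher against control, where 28% of tested genes were higher, and 5 against scramble, where 27.4% were. In scramble against control 3 were higher in that fit, where 0.578% of tested genes were. In that last comparison 96 of all tested genes were called (DESeq2 with all libraries called 4). At an adjusted p below 0.01, 0 were higher and 0 lower in either 1C-MIM comparison, where 33% and 31.6% of tested genes were called, and with no filter on low counts 0 were lower against scramble. Leaving out 1 library at a time gave 0 to 5 higher and 0 to 1 lower against control, 0 to 3 higher and 0 to 1 lower against scramble, and 0 to 3 of all tested genes in scramble against control. Over these fits 38.8% to 50.9% of tested genes were called against control and 37.2% to 52.9% against scramble. For these counts the cause was not tested.

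Of the alternative values for single genes, 509 kept direction and side of the threshold, 17 gained a call, 15 lost one and 59 changed sign. In 1C-MIM against control, Cacna1s turned to 0.083 with limma-voom, 0.035 with the block and 0.49 without the libraries numbered 1, and Ryr1 to 0.0067 with limma-voom and 0.42 without those libraries. In 1C-MIM against scramble, Cacna1s turned to 0.022, 0.039 and 0.13 in the same 3 fits and Ryr1 to -0.0055 with library size alone. In scramble against control, limma-voom gave 0.061 for Cacna1s, 0.0081 for Atp2a1, 0.0019 for Casq2, 0.0018 for Trdn and 0.013 for Jph2, and the block gave 0.0053 for Jph2. Without the libraries numbered 1 that comparison gave 0.36 for Cacna1s, 0.25 for Ryr1, 0.22 for Atp2a1, 0.11 for Atp2a2, 0.021 for Casq1, 0.14 for Casq2, 0.13 for Trdn, 0.17 for Jph1 and 0.14 for Jph2. The Jph1 share difference turned to 0.29 points there.

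Over the fits that each leave out 1 library, signs changed within these ranges. Against control they were -0.43 to 0.66 for Cacna1s, -0.41 to 0.49 for Ryr1, -0.12 to 0.51 for Atp2a2 and -0.68 to 0.078 for Casq1 in 1C-MIM. Against scramble they were -0.18 to 0.30 for Cacna1s, -0.038 to 0.19 for Stac3, -0.091 to 0.24 for Ryr1 and -0.48 to 0.061 for Casq1 in 1C-MIM. In scramble against control they were -0.45 to 0.67 for Cacna1s, -0.010 to 0.35 for Stac3, -0.44 to 0.46 for Ryr1, -0.47 to 0.58 for Atp2a1, -0.34 to 0.34 for Atp2a2, -0.47 to 0.40 for Casq1, -0.17 to 0.21 for Casq2, -0.12 to 0.11 for Trdn, -0.31 to 0.38 for Jph1 and -0.15 to 0.26 for Jph2. Share differences in scramble against control ran from -0.63 to 3.09 points for Atp2a1, -4.14 to 2.23 for Casq1 and -1.13 to 0.83 for Jph1. With 3 libraries a group, exact tests of shares could not pass 0.05. Shares from FPKM equal those from TPM by construction.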
